A study of Mus musculus with 6 samples.

Results

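The 53 genes described here code for the machinery that licenses and fires origins of DNA replication, copies the DNA and supplies its building blocks. They were taken by gene symbol from a named list, and all 53 were found among the 21878 genes of the deposited count table. RNA was sequenced from mouse tissue labelled Achilles tendon, in 3 libraries labelled sham (titled Control) and 3 labelled Achilles tendon amputation (titled HO), called sham 1 to 3 and amputation 1 to 3 here. The series title names heterotopic ossification, in which bone forms in soft tissue, and the comparison asks which transcripts differ after the tendon injury. Strain, sex, age, time after surgery and whether a library came from 1 animal or a pool are not given in the sources used here. The p-values thus measure only the spread between these libraries, which may be technical.

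Replication is prepared before it starts. In G1 phase the origin recognition complex (ORC) binds DNA and, with CDC6 and CDT1, loads the ring-shaped MCM2-7 helicase, a step called licensing that geminin blocks outside G1. At the start of S phase the kinase CDC7 with its activator DBF4 and factors such as treslin turn the loaded ring into an active helicase by adding CDC45 and the GINS complex, and polymerases, the sliding clamp PCNA and its loader RFC follow. Ribonucleotide reductase, thymidylate synthase and thymidine kinase provide the deoxynucleotides, and many of these genes are transcribed by E2F factors when a cell leaves rest.

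The libraries held between 23916839 and 31346730 counts each, and 1 read was worth 0.0319 to 0.0418 CPM (counts per scaled library total), and many of the 53 genes lie at a few CPM or less. The 3 amputation libraries were not alike. The 30 skeletal muscle marker genes, none of them at 0 in any library, held 20%, 19.6% and 21.8% of all counts in the sham libraries, 1.66% and 0.524% in amputation 1 and 2, and 16.2% in amputation 3. The tendon markers Tnmd and Scx were present in every library, at 44.5 to 78.2 and 8.09 to 16.3 CPM in sham and at 456 to 1010 and 22.6 to 67.9 CPM in amputation. The 10 cycling-cell markers, among them Mki67 and Top2a, took 0.00132% to 0.00144% of the counts in sham and 0.00759% to 0.0134% in amputation, and all 10 were higher. Of 12 macrophage markers 11 were higher (0.0366% to 0.0459% of counts in sham, 0.104% to 0.138% in amputation), and so were 5 of the 7 tested lymphocyte markers (0.000361% to 0.000489% against 0.00162% to 0.00298%). Of 10 marrow granulocyte precursor markers (0.000225% to 0.000623% against 0.000124% to 0.000257% of counts) 3 could be tested, and edgeR and limma-voom called 0 of them (1 at p under 0.05 before adjustment), against 1 called lower by DESeq2. Ms4a3 was at 0 in all 6 libraries. The 10 cartilage markers held 0.04% to 0.148% of the counts in sham and 0.331% to 1.4% in amputation, with 9 higher, and the 12 tendon fibroblast markers 0.882% to 1.97% and 7.24% to 17.6%, with 8 higher. The 10 endothelium markers held 0.109% to 0.125% and 0.0534% to 0.08%, with 6 lower, and the 11 erythroid markers found held 0.0197% to 0.0573% and 0.01% to 0.0261%, with 1 of 7 tested lower. That erythroid gene was Slc4a1, also called lower by limma-voom and DESeq2, and DESeq2 called Hbb-bt, Hba-a1, Hba-a2 and Alas2 lower too. The part of these cell populations in the results below was not tested. In bulk tissue, fewer cells of a type and less RNA per cell cannot be told apart.

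In the amputation libraries 15 of the 53 genes were higher and none was lower, 37 were not called, and Orc1 was too low to be tested (edgeR's quasi-likelihood test, n = 3 libraries per group, with p-values adjusted by Benjamini-Hochberg over 14561 genes and a threshold of 0.05). The 15 were Rrm2, Ticrr, Clspn, Dbf4, Tk1, Gins2, Cdt1, Mcm5, Rfc3, Tyms, Prim2, Mcm2, Mcm6, Mcm3 and Pcna, in order of fold change from 5.39-fold for Rrm2 to 1.40-fold for Pcna. They are 28.8% of the 52 tested genes, beside 20.4% of all tested genes called higher and 12.3% called lower, and 32.7% called in either direction. The median log2 fold change was 0.34 over the 52 genes and -0.02 over all genes tested. Before adjustment, 5 genes had a negative value at p under 0.05 in edgeR, and neither DESeq2 nor limma-voom called any of the 53 lower. The groups did not overlap in CPM for 25 genes that were higher and 5 that were lower in amputation, beside 28.7% and 26.1% of all genes tested (54.8% in either direction). Fold changes differed widely among genes whose products work in one machine: large for a few activators and nucleotide enzymes, moderate for the helicase ring, and small or negative for ORC2 to ORC5, RPA and most polymerase subunits.

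**Figure D1:**
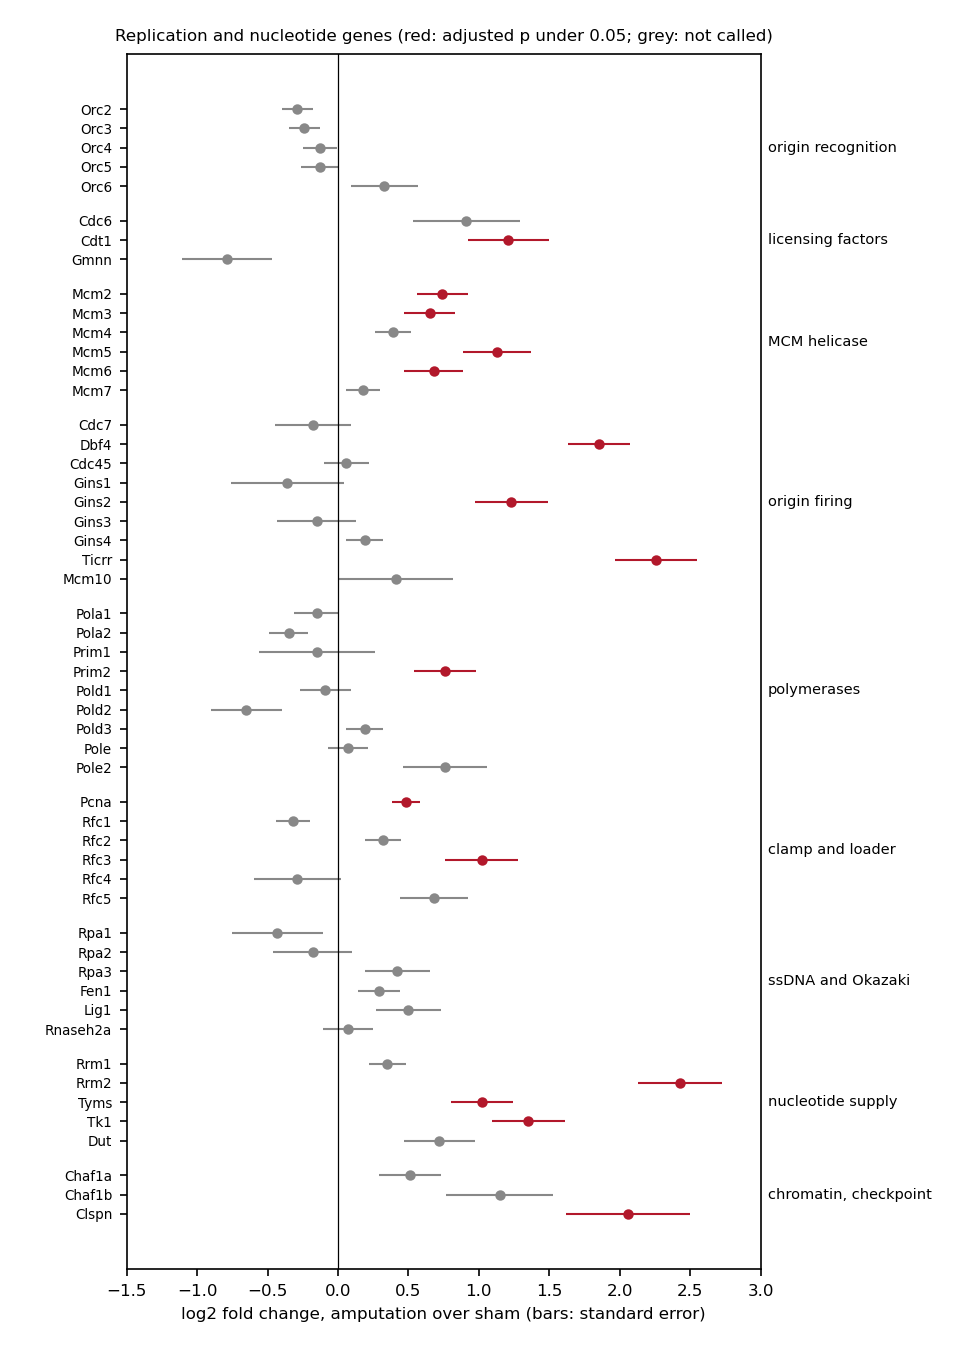
Log2 fold change (amputation over sham) with its standard error for the 52 tested genes, grouped by role, with genes at an adjusted p under 0.05 in red and the rest in grey. Rrm2, Ticrr, Clspn and Dbf4 lie farthest to the right, Gmnn and Pold2 farthest to the left, and no gene left of 0 passed the test.

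How far the count rests on single libraries differs from gene to gene. Without sham 1, 2 or 3 the number of higher genes was 5, 3 and 4, beside 10.6%, 7.39% and 9.19% of all genes, and without amputation 1 or 2 it was 7, beside 10.8% and 12.6%. Calls thus became fewer over all genes too. Without amputation 3, the library with the muscle share near sham, 22 were higher and 6 lower, beside 28.5% and 29.7% of all genes (58.2% in either direction). Mcm4, Rfc2, Rfc5, Lig1, Dut, Chaf1a and Chaf1b joined the higher genes there, and Orc3, Gmnn, Pola2, Pold2, Rfc1 and Rpa1 were lower. Dbf4, Ticrr and Rrm2 were called under each of the 17 other settings tried, including a covariate for the muscle genes, with which they were the 3 genes called (10.2% of all genes were higher there, 4.39% lower and 14.6% either). With the replicate number as a block 20 were higher and 1 lower, beside 21.7% and 17.3% of all genes (39.0% in either direction): Rfc5, Lig1, Rrm1, Dut and Chaf1b joined the higher genes, and Pold2 was lower. With the muscle covariate the values of these 6 were 0.33, 0.06, 0.49, 0.25, 0.59 and -0.23, none of them called. Of the 15 higher genes, Clspn (1.02), Cdt1 (0.65), Rfc3 (0.45), Tyms (0.59), Prim2 (0.36), Mcm6 (0.37) and Mcm3 (0.35) had values over 1.5 times smaller with that covariate.

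**Figure D2:**
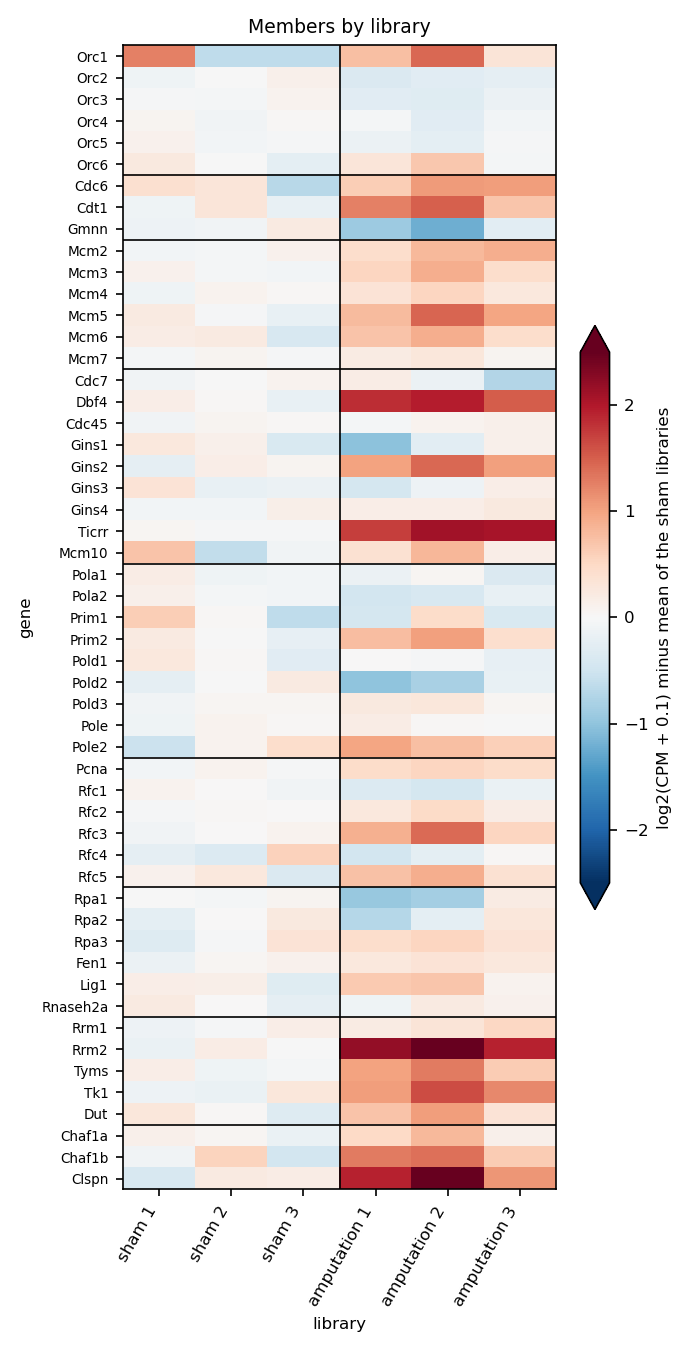
Each row is 1 of the 53 genes and each column a library, coloured by log2(CPM + 0.1) minus the mean of the 3 sham libraries, with black lines between roles and between groups. The median over all 53 genes was 0.31, 0.54 and 0.25 in amputation 1 to 3, and amputation 2 holds the highest value of Rrm2, Clspn, Cdt1, Mcm5 and Rfc3.

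The origin recognition complex held no called gene, beside 32.7% of all genes called in either direction. Before adjustment 1 of its 5 tested subunits, Orc2, reached p under 0.05 in edgeR, and neither DESeq2 nor limma-voom called any. Orc3 stood at 42, 41.4 and 45.5 CPM in sham 1 to 3 and 35.3, 34.9 and 38.7 CPM in amputation 1 to 3. All 3 amputation values lay below the sham values by a small margin (log2 -0.24 ± 0.11; edgeR's adjusted p = 0.118), and without amputation 3 the gene was called lower (-0.29), while its value was -0.15 with the muscle covariate. Orc2 was also lower without overlap and not called (log2 -0.29 ± 0.11), while Orc4 (log2 -0.13 ± 0.12) and Orc5 (log2 -0.13 ± 0.13) overlapped between groups. Orc6, whose product is the most loosely attached subunit, stood at 7.56, 6.28 and 5.31 CPM in sham 1 to 3 and 7.83, 10.1 and 6.11 CPM in amputation 1 to 3, with amputation 3 within the sham range. Orc1, the subunit whose level is known to follow the cell cycle in mammals, had 10, 1 and 1 counts in sham 1 to 3 and 8, 14 and 5 in amputation 1 to 3. At this depth, where 3 counts correspond to 0.0957 to 0.125 CPM, no difference in Orc1 was detectable.

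Of the 3 genes of helicase loading, Cdt1 was called higher, beside 20.4% of all genes called higher. Cdt1, which brings the helicase ring to ORC, stood at 1.47, 1.97 and 1.37 CPM in sham 1 to 3 and 3.9, 4.62 and 2.62 CPM in amputation 1 to 3, so that every amputation library exceeded every sham library. Cdt1 rose by log2 1.21 ± 0.29, a 2.31-fold change (edgeR's adjusted p = 0.0241). Its call was lost without sham 1, sham 2, sham 3, amputation 1 or amputation 2 (1.15, 1.36, 1.07, 1.17 and 1.02). Gmnn, which codes for geminin, the protein that binds CDT1 and blocks relicensing, stood at 2.21, 2.27 and 2.86 CPM in sham 1 to 3 and 1.26, 0.979 and 2.01 CPM in amputation 1 to 3. The Gmnn values were lower in all 3 amputation libraries, nearest to sham in amputation 3, and were not called (log2 -0.79 ± 0.32; edgeR's adjusted p = 0.101). Without amputation 3, Gmnn was called lower (-1.13), and with the muscle covariate its value was -0.20 (edgeR's adjusted p = 0.75). Cdc6, the ATPase that joins ORC before loading, stood at 1.27, 1.17 and 0.535 CPM in sham 1 to 3 and 1.48, 2.06 and 2.05 CPM in amputation 1 to 3, higher in each amputation library but at 14 to 61 counts and not called (log2 0.91 ± 0.38).

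The genes of the MCM2-7 ring had moderate changes. All 6 had positive log2 fold changes, with a median of 0.66, and 4 of 6 were called higher, beside 20.4% of all genes called higher. Mcm5, the ring subunit at the gate through which DNA enters, stood at 3.35, 2.8 and 2.52 CPM in sham 1 to 3 and 5.06, 8.1 and 5.77 CPM in amputation 1 to 3. This was the largest change of the ring, log2 1.13 ± 0.24 (edgeR's adjusted p = 0.0173), with no overlap between groups. Mcm2, the subunit on the other side of that gate and a histone binder, stood at 5.35, 5.45 and 6.07 CPM in sham 1 to 3 and 7.67, 10 and 10.6 CPM in amputation 1 to 3, and rose by log2 0.74 ± 0.18. In Mcm2, unlike Mcm5, amputation 3 held the highest value. Mcm6 stood at 16.8, 17.4 and 11.3 CPM in sham 1 to 3 and 24.7, 28 and 20.3 CPM in amputation 1 to 3, with the lowest sham value in sham 3, and rose by log2 0.68 ± 0.21 (edgeR's adjusted p = 0.0484). Mcm3 stood at 7.93, 7.12 and 6.95 CPM in sham 1 to 3 and 10.7, 13.8 and 9.86 CPM in amputation 1 to 3, and rose by log2 0.65 ± 0.18. Mcm4 (log2 0.39 ± 0.13) did not overlap between groups and was not called, and Mcm7 (log2 0.18 ± 0.12), which hosts a microRNA cluster in its introns, overlapped.

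These 4 calls depended on single libraries. Mcm5 was not called without sham 2 or sham 3 (1.08 and 1.0). For Mcm2 the call was lost without sham 1, sham 2, sham 3 or amputation 2 (0.71, 0.70, 0.77 and 0.69). Mcm3 lost it without sham 1, sham 2, sham 3, amputation 1 or amputation 2 (0.70, 0.60, 0.57, 0.70 and 0.49), and Mcm6 without sham 1, sham 2, sham 3, amputation 1 or amputation 2 (0.76, 0.77, 0.47, 0.67 and 0.57). Mcm6 was also not called with no filter on low counts, on either FPKM scale or with muscle genes left out of the library sizes. With the muscle covariate none of the 4 was called. The values there were 0.84 for Mcm2 (edgeR's adjusted p = 0.0511), 0.86 for Mcm5, 0.35 for Mcm3 and 0.37 for Mcm6.

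Per length, Mcm5 was the lowest ring subunit throughout. Its FPKM, a level scaled to gene length and library total, ran from 0.707 to 0.996 in sham and from 1.59 to 2.27 in amputation, the lowest of 6 in every library. The highest subunit, Mcm7 in sham and Mcm6 or Mcm7 in amputation, stood 4.78, 6.21 and 6.48 times above Mcm5 in sham 1 to 3 and 3.79, 2.69 and 2.98 times above it in amputation 1 to 3. The spread within the ring was thus narrower in the amputation libraries, a difference described here without a test. In ORC the 4 subunits Orc2 to Orc5 stayed within 1.11 to 1.47 times of each other in every library.

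**Figure D3:**
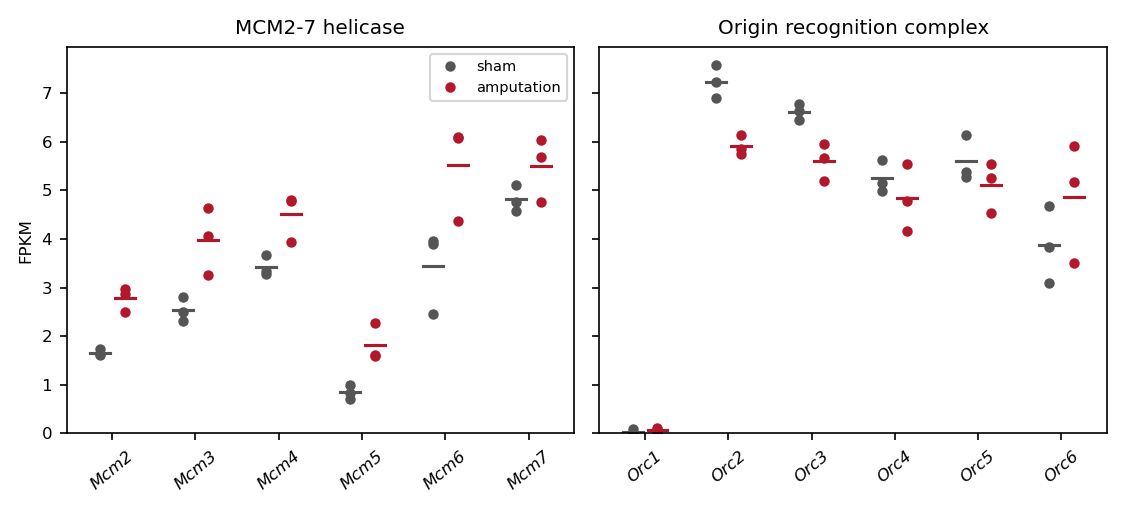
FPKM of the 6 subunits of the MCM2-7 helicase and of ORC in each library, sham in grey and amputation in red, with a line at each mean of 3. Every ring subunit has a higher mean in amputation, while Orc2 to Orc5 have a lower one and Orc1 lies close to 0 in both groups.

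Ratios taken within a library do not depend on how libraries are scaled. The mean FPKM of Mcm2 to Mcm7 over that of Orc2 to Orc5 was 0.458, 0.49 and 0.408 in sham 1 to 3 and 0.72, 0.895 and 0.645 in amputation 1 to 3, a log2 difference of 0.73. The groups did not overlap (exact two-sided permutation p = 0.1, below which 3 against 3 cannot go, or 0.133 adjusted over 8 ratios). Against Mki67, a gene expressed in cycling cells, the ratio of the ring was lower in amputation. The ratio of Mcm2 to Mcm7 over Mki67 was 4.92, 5.19 and 4.47 in sham and 0.95, 0.765 and 1.06 in amputation, while Mki67 itself rose by log2 2.96 ± 0.23, from 5.80, 5.68 and 5.92 to 40.7, 60.1 and 35.0 CPM. That log2 difference was -2.41 (exact permutation p = 0.1, 0.133 adjusted over 8 ratios), and it was -1.37 with 1 FPKM added to each level. The ratio of Cdt1 to Gmnn was 0.329, 0.427 and 0.237 in sham and 1.53, 2.33 and 0.641 in amputation (log2 difference 2.03, or 1.14 with 1 FPKM added; exact permutation p = 0.1).

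**Figure D4:**
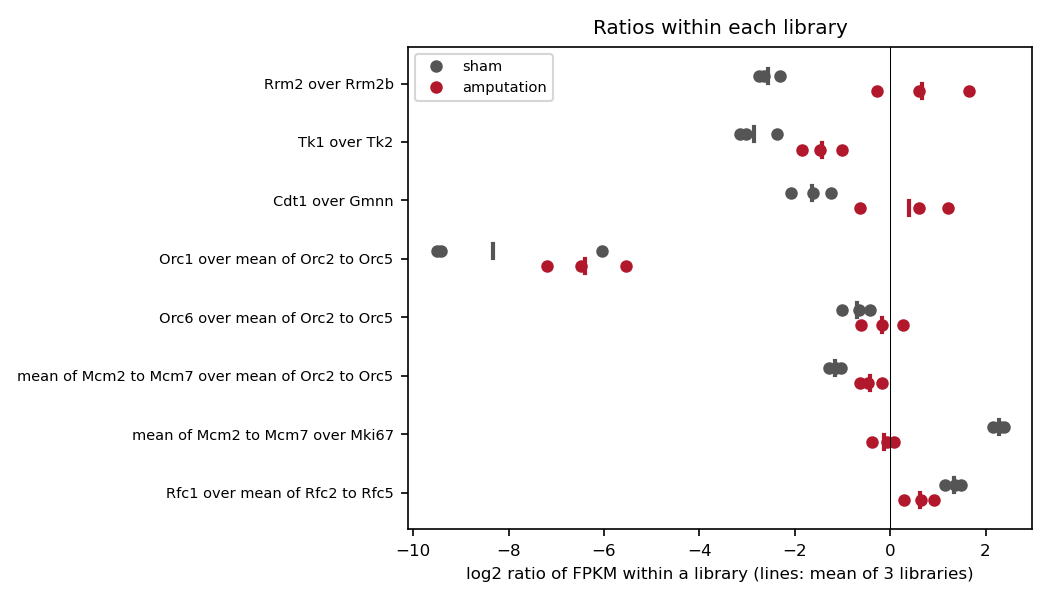
Log2 ratios of FPKM between genes within each library, sham in grey and amputation in red, with a line at each mean of 3 libraries. The groups do not overlap for 6 of the 8 ratios. Those of Orc1 and Orc6 over Orc2 to Orc5 overlap, and Mcm2 to Mcm7 over Mki67 and Rfc1 over Rfc2 to Rfc5 are the ratios that are lower in amputation.

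The RefSeq promoter table of build GRCm38.p6 held 45 of the 53 genes, and the 250 bases before each listed start were searched on both strands for letters bound by factors known to drive such genes. An E2F site, spelled TTTCGCGC or TTTGGCGC, was found for 5 of the 45 genes (11.1%), beside 0.759% of all 27025 genes and 0.654% of all promoters in the table. The 5 were Mcm5, Mcm6 and Rfc3, which were called higher, Pola1, which was not, and Orc1. CCAAT, the letters bound by NF-Y, was found for 27 of 45 genes (60%) and for 37.5% of all genes, and TTTGAA, a CHR element, for 13.3% and 18.3%. For Dbf4, Tk1, Tyms and Cdt1, all called higher, neither the E2F nor the CCAAT letters are in this window, which says nothing of other spellings or positions. The stretches below show where the E2F letters lie in 4 of these 5 genes and where CCAAT lies before the starts of Rrm2 and Ticrr, the genes with the largest changes (for Ticrr the match 34 bases before the start, with others at 116 and 174 bases), each 5′ to 3′ on the gene's strand with the matched letters (or their complement) in capitals. In Mcm5 and in the upper stretch of Mcm6 matches on both strands overlap, so 12 letters are in capitals.
Mcm5, chr8:75109336-75109383, plus strand: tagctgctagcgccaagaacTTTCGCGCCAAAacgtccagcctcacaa
Mcm6, chr1:128359788-128359835, minus strand: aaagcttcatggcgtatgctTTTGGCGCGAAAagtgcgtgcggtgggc
Mcm6, chr1:128359725-128359772, minus strand: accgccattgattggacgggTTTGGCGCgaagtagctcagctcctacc
Rfc3, chr5:151651209-151651238, minus strand: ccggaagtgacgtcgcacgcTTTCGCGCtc
Pola1, chrX:93632266-93632313, minus strand: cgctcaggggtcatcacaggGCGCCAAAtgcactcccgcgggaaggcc
Rrm2, chr12:24708189-24708223, plus strand: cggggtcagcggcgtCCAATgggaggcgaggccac
Ticrr, chr7:79660147-79660181, plus strand: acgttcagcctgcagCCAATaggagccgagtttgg
These are matches of letters in the reference genome. No binding was measured.

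Of the partners in the origin-firing kinase, Dbf4 was called higher and Cdc7 was not called. Dbf4, the activating subunit of the CDC7 kinase, stood at 1.68, 1.51 and 1.3 CPM in sham 1 to 3 and 5.61, 6.11 and 4.46 CPM in amputation 1 to 3. The groups were far apart, and the rise was log2 1.85 ± 0.22, or 3.60-fold (edgeR's adjusted p = 0.0044). Cdc7, the catalytic subunit, stood at 3.43, 3.63 and 3.89 CPM in sham 1 to 3 and 4.19, 3.31 and 2.15 CPM in amputation 1 to 3. Its amputation values ran from below to above the sham values (log2 -0.18 ± 0.27; edgeR's adjusted p = 0.611). Per length, Dbf4 was the lower of the partners in every sham library (0.511 to 0.699 against 1.08 to 1.16 FPKM) and the higher in every amputation library (1.73 to 2.5 against 0.628 to 1.41 FPKM).

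Ticrr codes for treslin, a factor required to join CDC45 to the loaded helicase. It rested on few counts, 8 in each sham library and 39, 49 and 48 in amputation 1 to 3. The values were 0.327, 0.303 and 0.305 CPM in sham 1 to 3 and 1.26, 1.65 and 1.61 CPM in amputation 1 to 3, with no overlap. Its rise of log2 2.26 ± 0.29 was 4.78-fold (edgeR's adjusted p = 0.00509), and amputation 2 and 3 were close to each other. Gins2, a GINS subunit, stood at 0.817, 1.1 and 1.03 CPM in sham 1 to 3 and 2.06, 2.8 and 2.08 CPM in amputation 1 to 3, and rose by log2 1.23 ± 0.26 (edgeR's adjusted p = 0.0164). Without sham 1, sham 2, sham 3 or amputation 2 (1.11, 1.30, 1.23 and 1.07) it was not called. Of its 4097 annotated exon bases 67.3% overlap exons of Gse1 on the other strand, which cannot be told apart if strand was not used in counting. The gene length implied by the Gins2 FPKM was 1038 bases, and the overlap within the counted bases is not known. The 3 other GINS subunits Gins1 (log2 -0.36 ± 0.40), Gins3 (log2 -0.15 ± 0.28) and Gins4 (log2 0.19 ± 0.13) were not called. Cdc45 stood at 3.51, 3.9 and 3.82 CPM in sham 1 to 3 and 3.64, 3.95 and 4.09 CPM in amputation 1 to 3, nearly level across all libraries, and Mcm10, which activates the assembled helicase, was spread within the sham group from 0.833 to 2.25 CPM (log2 0.41 ± 0.41).

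Among 9 polymerase and primase genes 1 was called higher, beside 20.4% of all genes. Prim2, the large primase subunit, stood at 4.66, 3.98 and 3.44 CPM in sham 1 to 3 and 6.87, 8.2 and 5.37 CPM in amputation 1 to 3, above sham in each amputation library. It rose by log2 0.76 ± 0.22 (edgeR's adjusted p = 0.0417) and was not called without sham 1, sham 2, sham 3, amputation 1 or amputation 2 (0.87, 0.73, 0.62, 0.76 and 0.61), with no filter, on either FPKM scale or with the muscle covariate. Its partner Prim1, the catalytic primase subunit, ranged from 2.21 to 5.39 CPM in sham and from 2.55 to 4.83 CPM in amputation (log2 -0.15 ± 0.41). Pola1 (log2 -0.15 ± 0.16) and Pola2 (log2 -0.35 ± 0.14), the polymerase alpha subunits, were not called, and Pola2 was lower in each amputation library. Without amputation 3, Pola2 was called lower (-0.43), and with the muscle covariate its value was -0.19. Pole2, the accessory subunit of the leading-strand polymerase, stood at 1.23, 1.93 and 2.48 CPM in sham 1 to 3 and 3.67, 3.14 and 2.78 CPM in amputation 1 to 3, without overlap and not called (log2 0.76 ± 0.30), while the catalytic subunit gene Pole was level (log2 0.07 ± 0.14).

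Pold2, a small subunit of polymerase delta, had the most negative log2 fold change of the polymerase genes. It stood at 15.1, 17.6 and 20.8 CPM in sham 1 to 3 and 8.73, 9.96 and 15.4 CPM in amputation 1 to 3, with amputation 3 inside the sham range, and was not called (log2 -0.65 ± 0.25; edgeR's adjusted p = 0.0868). With the replicate block it was called lower (-0.68, edgeR's adjusted p = 0.0268), and also without amputation 3 (-0.93), whereas with the muscle covariate its value was -0.23 (edgeR's adjusted p = 0.575). Pold1, the catalytic subunit (log2 -0.09 ± 0.18), and Pold3 (log2 0.19 ± 0.13) were not called.

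Pcna, the sliding clamp that holds polymerases on DNA, had the smallest SE of the 15 genes that rose. It stood at 20.2, 22.5 and 20.7 CPM in sham 1 to 3 and 29, 30.7 and 28.8 CPM in amputation 1 to 3. The rise of log2 0.48 ± 0.10 was 1.40-fold (edgeR's adjusted p = 0.0177), with no overlap between groups, and was not called with the muscle covariate or without sham 1, sham 2, sham 3, amputation 1 or amputation 2 (0.45, 0.51, 0.43, 0.50 and 0.45). In the clamp loader, Rfc3 stood at 2.57, 2.73 and 2.9 CPM in sham 1 to 3 and 5.16, 7.46 and 4.03 CPM in amputation 1 to 3. It rose by log2 1.02 ± 0.26, most in amputation 2, and its call was lost without sham 1, sham 2, sham 3, amputation 1 or amputation 2 (0.97, 0.99, 1.03, 1.07 and 0.75). Rfc1, the large subunit, was lower in each amputation library without passing the test, at 55.9, 53.3 and 49.9 CPM in sham 1 to 3 and 41.4, 39.2 and 46.9 CPM in amputation 1 to 3 (log2 -0.32 ± 0.12; edgeR's adjusted p = 0.0821). Without amputation 3, Rfc1 was called lower (-0.39), and with the muscle covariate its value was -0.16. The ratio of Rfc1 to the mean of Rfc2 to Rfc5 was 2.81, 2.59 and 2.23 in sham and 1.57, 1.22 and 1.9 in amputation (log2 difference -0.72, exact permutation p = 0.1). Rfc5 (log2 0.68 ± 0.24) and Rfc2 (log2 0.32 ± 0.13) had positive values without overlap, and Rfc4 (log2 -0.29 ± 0.31) overlapped, with sham 3 highest. Rfc5 was called higher with the replicate block (0.69), by DESeq2 and without amputation 3 (0.82), and Rfc2 without amputation 3 (0.38).

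None of the 6 genes that coat single-stranded DNA or finish Okazaki fragments was called in edgeR's test, beside 32.7% of all genes called in either direction. Before adjustment 0 reached p under 0.05, and both DESeq2 and limma-voom called 0 of them. Rpa1, the large subunit of the single-strand binding protein RPA, stood at 64.4, 62.5 and 67.3 CPM in sham 1 to 3 and 33.8, 35.9 and 74.9 CPM in amputation 1 to 3. Amputation 1 and 2 lay far below sham and amputation 3 above it (log2 -0.43 ± 0.32). The muscle marker share was 1.66% and 0.524% in the former and 16.2% in the latter, and its part in this result was not tested. Without amputation 3 it was called lower (-0.89), and with the muscle covariate its value was 0.20. Rpa2 (log2 -0.18 ± 0.28) had its highest amputation value in the same library, whereas Rpa3 (log2 0.42 ± 0.23) did not. Lig1, the ligase that joins Okazaki fragments, stood at 6.82, 6.7 and 4.89 CPM in sham 1 to 3 and 9.61, 9.92 and 6.44 CPM in amputation 1 to 3 (log2 0.50 ± 0.23). It was called higher with the replicate block (0.49, edgeR's adjusted p = 0.0493) and without amputation 3 (0.67). Fen1, the flap endonuclease (log2 0.29 ± 0.15), was higher in each amputation library without passing the test, with 84.2% of its exon bases overlapping genes on the other strand, and Rnaseh2a (log2 0.07 ± 0.18) overlapped.

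All 5 nucleotide supply genes were higher in every amputation library than in every sham library, beside 28.7% of all genes. Of these 5, 3 were called higher, beside 20.4% of all genes. Rrm2, the small subunit of ribonucleotide reductase that limits the enzyme outside S phase, stood at 1.96, 2.54 and 2.21 CPM in sham 1 to 3 and 10.6, 17 and 8.69 CPM in amputation 1 to 3. It rose by log2 2.43 ± 0.30, or 5.39-fold, the largest change of the 53 genes (edgeR's adjusted p = 0.00461). Rrm1, the large catalytic subunit, stood at 26.5, 28.4 and 32.3 CPM in sham 1 to 3 and 33.6, 36.1 and 41.2 CPM in amputation 1 to 3, a far smaller shift (log2 0.35 ± 0.13; edgeR's adjusted p = 0.0867, and 0.0423 with the replicate block, where it was called). Per length, Rrm1 exceeded Rrm2 by 7.37, 6.11 and 7.96 times in sham 1 to 3 and by 1.73, 1.16 and 2.59 times in amputation 1 to 3.

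Rrm2 has a counterpart, Rrm2b, which provides the small subunit in resting cells. Rrm2b stood at 33.8, 34.6 and 40.7 CPM in sham and 19.2, 14.8 and 29.0 CPM in amputation (log2 -0.79 ± 0.25; edgeR's adjusted p = 0.0521, not called). It was called lower with the replicate block (-0.84), by DESeq2, by limma-voom and without amputation 3 (-1.10). With the muscle covariate its value was -0.25, not called. The ratio of Rrm2 to Rrm2b per length was 0.16, 0.201 and 0.15 in sham and 1.51, 3.15 and 0.826 in amputation, with the smallest value of the injured libraries in amputation 3. The log2 difference of 3.23 was the largest of the 8 ratios (exact permutation p = 0.1, 0.133 adjusted over 8 ratios), and 2.33 with 1 FPKM added.

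Tk1, the cytosolic thymidine kinase of S phase, stood at 1.43, 1.4 and 1.95 CPM in sham 1 to 3 and 3.35, 5.13 and 3.76 CPM in amputation 1 to 3. It rose by log2 1.35 ± 0.26 (edgeR's adjusted p = 0.013) with the call lost without sham 1 or sham 2 (1.28 and 1.25). Its mitochondrial counterpart Tk2 overlapped between groups at 14.5 to 18.1 and 14.8 to 17.3 CPM (log2 -0.06 ± 0.14), and the ratio of Tk1 to Tk2 was 0.113 to 0.192 in sham and 0.278 to 0.497 in amputation (log2 difference 1.41, or 0.79 with 1 FPKM added; exact permutation p = 0.1). Tyms, which makes thymidylate, stood at 4.45, 3.67 and 3.82 CPM in sham 1 to 3 and 8.03, 9.89 and 6.24 CPM in amputation 1 to 3. Its rise was log2 1.02 ± 0.22 (edgeR's adjusted p = 0.017), lost without sham 2, sham 3 or amputation 1 (0.94, 0.95 and 1.02). Dut, which removes dUTP from the pool, stood at 8.5, 7.12 and 5.54 CPM in sham 1 to 3 and 11.4, 14.5 and 8.86 CPM in amputation 1 to 3, and was not called (log2 0.72 ± 0.25) except with the replicate block (0.71), by DESeq2 and without amputation 3 (0.88).

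Clspn codes for claspin, which links the fork to the checkpoint kinase CHK1, and Chaf1a and Chaf1b for chromatin assembly factor subunits that place histones on new DNA. Clspn stood at 0.654, 1.06 and 1.03 CPM in sham 1 to 3 and 3.67, 5.77 and 2.05 CPM in amputation 1 to 3, low in sham and widely spread within the amputation group, with amputation 3 nearest to sham. It rose by log2 2.06 ± 0.44, or 4.16-fold (edgeR's adjusted p = 0.0171), and was not called without sham 1, sham 2, sham 3 or amputation 1 (1.87, 2.15, 2.11 and 2.09). Chaf1b stood at 0.817, 1.33 and 0.611 CPM in sham 1 to 3 and 2.29, 2.43 and 1.41 CPM in amputation 1 to 3, with no overlap, and was not called (log2 1.15 ± 0.38) except with the replicate block (1.17), by DESeq2, on log2(FPKM + 1) and without amputation 3 (1.36). Chaf1a overlapped at its lowest amputation value (log2 0.51 ± 0.22). Of its 8854 annotated exon bases 52.5% overlap a gene on the other strand, while the length implied by its FPKM was 3308 bases.

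**Figure D5:**
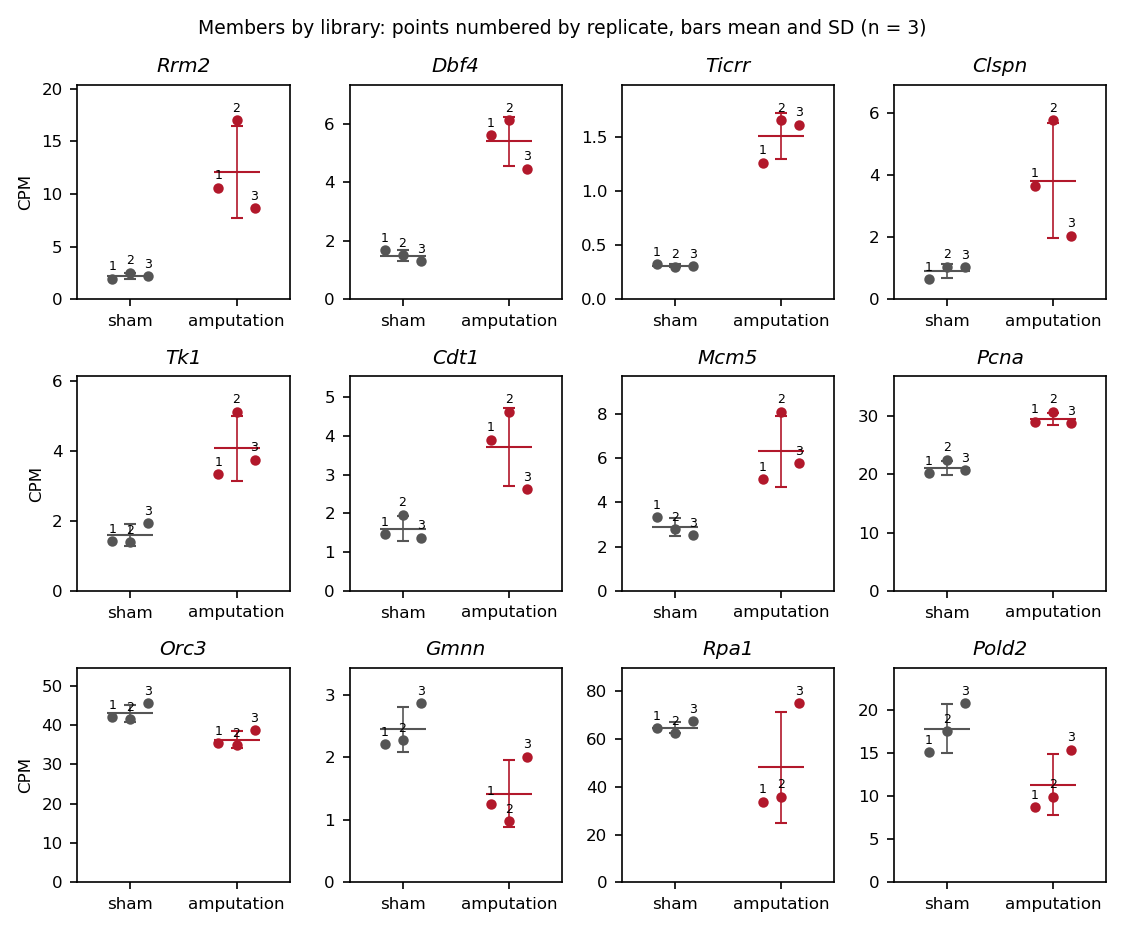
CPM by library for 12 of the genes, with points numbered by replicate and bars for the mean and SD of 3 libraries, each panel on its own scale from 0. The upper 8 genes were called higher and show no overlap, whereas Rpa1 and Pold2 have amputation 3 above or within the sham range.

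Other genes of the same pathway had calls in both directions. Among 34 tested further genes of the fork and its chromatin, 8 were higher and 1 lower, with 25 not called (median log2 0.34; 20.4% of all genes were higher and 12.3% lower). The gene 2810417H13Rik, which codes for the PCNA-associated factor PCLAF, rose by log2 2.89 ± 0.44, from 0.245, 0.757 and 0.344 to 2.97, 4.32 and 2.85 CPM. Pold4, the smallest polymerase delta subunit, rose by 0.77 ± 0.13 (0.75 and not called without sham 2). Rif1, which restrains origin firing, fell by 0.62 on the log2 scale (SE 0.13), from 68.2, 62.5 and 59.7 to 44.1, 35.9 and 44.0 CPM (-0.57 and -0.65 without sham 1 and sham 2, where the call was lost). Their adjusted p-values by edgeR were 0.00714, 0.0099 and 0.0166. Without each library in turn 1 to 13 of these genes were higher, fewest without sham 2 and most without amputation 3, and 2 with the muscle covariate.

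Among 33 further nucleotide synthesis genes, 11 were higher and 2 lower, with 20 not called (median log2 0.30), or 33.3% higher and 6.06% lower beside 20.4% and 12.3% of all genes. Cmpk1, a kinase of pyrimidine monophosphates, rose by log2 1.35 ± 0.18, from 23.9, 25.7 and 25.0 to 60.3, 79.4 and 50.3 CPM, and Dctd, which makes dUMP from dCMP, by 1.60 ± 0.29, from 0.776, 1.02 and 1.03 to 3.06, 3.44 and 2.08 CPM. Pfas, an enzyme of purine synthesis, fell by 0.50 on the log2 scale (SE 0.11), from 38.5, 37.1 and 34.3 to 26.6, 24 and 27.0 CPM, with the call lost without sham 1, sham 2, amputation 1 or amputation 2 (-0.47, -0.51, -0.52 and -0.45). By edgeR the adjusted p-values were 0.00571, 0.0108 and 0.0179. The number higher was 2, 2, 4, 4, 5 and 13 without sham 1 to 3 and amputation 1 to 3 in turn, and 1 with the muscle covariate.

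Among 28 genes of E2F and G1/S control, 7 were higher and 3 lower, with 18 not called (median log2 0.48). These shares, 25% and 10.7%, lie near the 20.4% and 12.3% over all genes. E2f1, an activating E2F factor, rose by log2 2.05 ± 0.21, from 1.72, 1.86 and 1.57 to 5.90, 8.47 and 6.88 CPM, and Ccna2, the S-phase cyclin, by 3.16 ± 0.31, from 0.981, 1.40 and 1.03 to 10.1, 13.5 and 7.15 CPM. Both were called under each setting. Rb1, the repressor that binds E2F factors in resting cells, fell by 0.58 on the log2 scale (SE 0.16), from 52.4, 49.2 and 57.5 to 34.5, 30.0 and 42.2 CPM, and was called with all 6 libraries and without amputation 3 but not without any other library (-0.65 to -0.47). The adjusted p-values from edgeR were 0.00355, 0.00333 and 0.0343. With the muscle covariate 6 of the list were higher and 0 lower, and without sham 3 or amputation 3 the number higher was 4 and 12.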

How the data were processed

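The 53 genes and all gene lists were chosen with earlier results of these data known. Per the labels' protocols, total RNA came from a mirVana kit and went into stranded TruSeq libraries after ribosomal RNA removal (Ribo-Zero Gold). The submitters' processing notes name Trimmomatic, HISAT2 and the build GRCm38.p6. The counting program and its strand setting are not given in the sources used here. The deposited count table holds whole read counts per gene, not normalized. The deposited FPKM table holds those counts divided by gene length and library total, checked from the values: the implied length was whole within 0.01 bases for 100% of 15164 genes.

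The count model was edgeR 4.0.16 under R 4.3.3 (filterByExpr, 14561 of 21878 genes tested; TMM scaling; quasi-likelihood test of amputation against sham; Benjamini-Hochberg adjustment over all tested genes; threshold 0.05). SE is the absolute log2 fold change over the square root of F. The common biological coefficient of variation was 0.296. CPM are TMM-scaled, and values after ± are SE. Per-library log2 values use CPM + 0.1. Ratios were taken from FPKM with no pseudocount and tested by exact two-sided permutation in scipy 1.17.1 (Python 3.11.15). In simulated data of 14447 genes, 77% of genes changed 4-fold and 9% of genes changed 2-fold were called, with 5 unchanged genes called. Far fewer genes were changed there than were called in the data. The adjusted threshold was therefore stricter, and these shares do not give the power of the test here. Near 2-fold, Tyms (2.02-fold) and Rfc3 (2.03-fold) were called and Chaf1b (2.22-fold) was not. Alternatives were DESeq2 1.42.0 size factors or Wald test, upper quartile scaling, limma 3.58.1 voom, 2 other filters, limma on log2(FPKM + 1) and log2(FPKM + 0.1), a muscle covariate, library sizes without muscle genes, each library left out, and a replicate block. Deviations from the group means correlated positively between same-numbered sham and amputation libraries (r = 0.259, 0.13 and 0.409 for numbers 1 to 3 over all tested genes). The block treated same-numbered libraries as pairs, which these values do not establish. Differently numbered libraries gave -0.332 to 0.244, and amputation 2 correlated more with sham 1 (0.244) than with sham 2. The labels say nothing of what a number shares. No libraries of a group agreed within sampling noise (the closest, sham 1 and 2, had a mean chi-square of 15 per gene).

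All 53 genes were described. Of each other list, the 2 genes with the smallest p and, where calls went both ways, the most significant one in the opposite direction were named, with Rrm2b, Tk2 and Mki67 as ratio partners. Exons were compared with GENCODE M21: 5 of the 53 genes share exon bases with a gene on the same strand and 17 with one on the other strand.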

Additional observations from a re-analysis of the deposited data

How the results depend on the processing

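Counting depth limits Orc1 and genes under about 1 CPM such as Ticrr, and the small groups limit how small a change can be called. Of the 15 higher genes, 15 remained with DESeq2 size factors, upper quartile scaling, DESeq2's Wald test, limma-voom, the stricter filter and the replicate block, 14 with muscle genes out of the library sizes, 13 with no filter and on both FPKM scales, and 3 with the muscle covariate; the cause of the losses was not tested. The replicate block (20 higher, 1 lower) took no call away; it gave a call to 7 of the genes named, and changed no other. Genes called lower among the 53 were 2 on log2(FPKM + 1), 1 on log2(FPKM + 0.1), 1 with the block, and 0 to 6 with single libraries left out, against 3 to 22 higher.

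With single libraries left out, the further fork genes gave 1 to 13 higher and 0 to 2 lower, nucleotide synthesis 2 to 13 and 0 to 7, E2F and G1/S control 4 to 12 and 0 to 5, checkpoint 0 to 3 and 0 to 2, and the Fanconi list 1 to 9 and 0 to 1. The muscle covariate gave 2 and 0, 1 and 0, 6 and 0, 0 and 0, and 1 and 0. Lower nucleotide synthesis genes were 1 with no filter and 4 with the block. The Fanconi list held 8 higher with upper quartile scaling, DESeq2 or log2(FPKM + 1).

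The block left the ratio differences as they were, with 0.25 the smallest sign-flip p, and 1 FPKM added moved those of Rrm2 to 2.33, Tk1 to 0.79, Cdt1 to 1.14, Orc1 to 0.22 and the ring over Mki67 to -1.37. Left-out libraries kept each ratio's sign (Orc1 1.32 to 3.06).

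The lowest values with single libraries left out were, for uncalled genes that changed sign, -0.42 (Cdc7), -0.31 (Gins3), -0.52 (Prim1), -0.26 (Pold1), -0.48 (Rfc4), -0.47 (Rpa2) and -0.17 (Tk2). The changes of sign were with the muscle covariate Orc5 (0.00), Orc6 (-0.14), Gins3 (0.08), Mcm10 (-0.03), Rpa1 (0.20) and Rpa2 (0.19); without sham 1 Gins3 (0.05), Prim1 (0.21), Pold1 (0.05) and Tk2 (0.02); without sham 3 Rfc4 (0.04) and Rnaseh2a (-0.07); without amputation 1 Gins3 (0.00), Prim1 (0.01) and Rpa2 (0.03); without amputation 2 Rnaseh2a (-0.01); and without amputation 3 Cdc7 (0.04).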

Other observations

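Of 24 Fanconi anaemia and recombination genes, which repair broken or crosslinked forks, 5 were higher, 0 were lower and 19 were not called (median log2 0.51). The share higher, 20.8%, is close to the 20.4% of all genes, of which 12.3% were lower. Before adjustment 1 gene had a negative value at p under 0.05 in edgeR, and both DESeq2 and limma-voom called 0 lower. Brca1, a mediator of recombination repair, stood at 0.776, 0.681 and 0.954 CPM in sham 1 to 3 and at 2.64, 4.79 and 2.75 CPM in amputation 1 to 3, a rise of log2 2.07 ± 0.33 that held under each setting. Fanca, a subunit of the Fanconi core complex, rose by 1.96 ± 0.37, from 0.490, 0.341 and 0.496 to 1.55, 2.40 and 1.24 CPM, a call lost when sham 2 was left out (1.78) or the muscle covariate added. Their edgeR adjusted p-values were 0.00797 and 0.0122. With sham 2 left out 1 gene of this list was higher, and 3 without amputation 1 or amputation 2.

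Of 12 replication checkpoint genes 1 was higher (8.33%, beside 20.4% of all genes; the difference was not tested) and 11 were not called, with a median log2 fold change of 0.02. Trp53, which codes for p53, rose by 0.48 ± 0.12, from 25.5, 21.7 and 25.2 to 34.6, 34.9 and 31.2 CPM (edgeR's adjusted p = 0.0261), a call kept when amputation 3 was left out and lost when any other library was (0.38 to 0.51). Atrip, the partner of the checkpoint kinase ATR, stood at 13.4, 16.2 and 15.1 CPM in sham and 10.7, 11.1 and 12.4 CPM in amputation, lower in each library and not called (log2 -0.38 ± 0.13, edgeR's adjusted p = 0.07).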
